A study of Mus musculus with 12 samples.

Results

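The collagen chain genes are the genes whose symbol is Col, a type number, the letter a and a chain number. They were taken by symbol alone from the tables of RNA levels in primary mouse brain endothelial cells (BECs), and 43 of the 32419 genes listed in either table met the rule. The table for normoxia and normoglycemia (NX/NG) listed 41 of them among 29965 genes, and the table for oxygen-glucose deprivation with reoxygenation (OGD-R) listed 43 among 29775. Col6a4 and Col26a1 were listed under OGD-R only, and 41 of the 27321 genes present in both tables were collagen genes.

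Collagens are secreted trimers of coiled chains, and the gene products that assemble together decide which collagen a cell makes. In brain capillaries the endothelium and the pericytes share a basement membrane built on a network of type IV collagen, whereas the interstitial fibrils of types I, III and V are known mainly from larger vessels and their fibroblasts and mural cells. Chains are hydroxylated and folded in the endoplasmic reticulum, trimmed outside the cell by procollagen proteinases and cross-linked by lysyl oxidases, and cells bind them through integrins and discoidin domain receptors.

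The study isolated BECs from the brain microvessels of adult C57BL/6 mice with both copies of the cortistatin gene (Cort+/+) or with none (Cort-/-), cortistatin being a neuropeptide related to somatostatin. BECs were kept in 21% oxygen with 5.5 mM glucose (NX/NG), or were held for 4 h in 1% oxygen with 0 mM glucose and without serum. The latter were then returned to 21% oxygen and 5.5 mM glucose, in medium with serum, for 20 h (OGD-R). Oxygen, glucose and serum changed together, so their parts cannot be told apart. Each culture was a pool of cells from 3 mice, and the cells had been enriched for endothelium with puromycin. The labels also give a stroke model, middle cerebral artery occlusion, as the disease state of every sample, although the deprivation was applied to cultures. As models, the groups are limited by a gene loss present throughout life and in all cells, by culture before harvest, and by pooling of animals. Of the 12 samples listed, 10 had a column of values, 3 from Cort+/+ and 2 from Cort-/- BECs in each environment.

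The 10 libraries held from 12386048 to 12390428 reads on genes, as recovered from the RPKM values. Why these totals are so alike is not stated in the sources used here, and they may not be the sequenced depths. Rn18s-rs5, a ribosomal RNA, ranged from 7.64% to 15.8% of a library except in a pair of OGD-R libraries, Cort+/+ replicate 1 (0.0775%) and Cort-/- replicate 3 (0.0951%). Counts of collagen genes at an unadjusted p under 0.05 are therefore also given without these libraries, in the comparisons that hold them. Apart from Col1a2 under OGD-R, estimates of single genes are not. No share of all genes was counted at an unadjusted p in fits that leave libraries out. Those counts therefore show only how far the number moved. The targeted gene Cort was read 2, 1 and 1 times in Cort+/+ BECs under NX/NG, 1 time in Cort+/+ OGD-R replicate 3 and 0 times elsewhere, which is at or under the floor of 3 reads everywhere and gives no check of the genotype. Among the 7 endothelial markers, Cldn5 was between 105 and 136 RPKM (reads scaled to gene length and library size). Cdh5 was between 443 and 740 RPKM, whereas Tek was between 9.57 and 15.3 RPKM and Kdr between 14.6 and 24.98 RPKM. The 5 smooth muscle markers summed to more than the 7 endothelial markers in every library except Cort-/- OGD-R replicate 1 (995 against 1342 RPKM). Epithelial keratin was uneven, with Krt8 at 18.7 RPKM in Cort+/+ NX/NG replicate 2, 11.9 RPKM in Cort-/- OGD-R replicate 1, 2.57 RPKM in Cort-/- NX/NG replicate 2 and at most 0.443 RPKM elsewhere.

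Collagen RNA in these cultures was mostly basement membrane collagen. Collagen genes took from 1.24% to 1.74% of the reads that were not ribosomal. The type IV genes made up between 55.7% and 69.1% of the summed collagen RPKM, the fibrillar genes between 12.2% and 25.2%, the multiplexins Col15a1 and Col18a1 between 9.83% and 14.3%, and the beaded filament genes of type VI between 1.94% and 5.41%. Under NX/NG 4 collagen genes had a mean of at least 100 RPKM, 8 had from 10 to 100, 10 had from 1 to 10, and 19 lay below 1 RPKM. Under OGD-R these numbers were 4, 9, 9 and 21, and the 22 genes at or above 1 RPKM were the same in both environments.

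**Figure D1:**
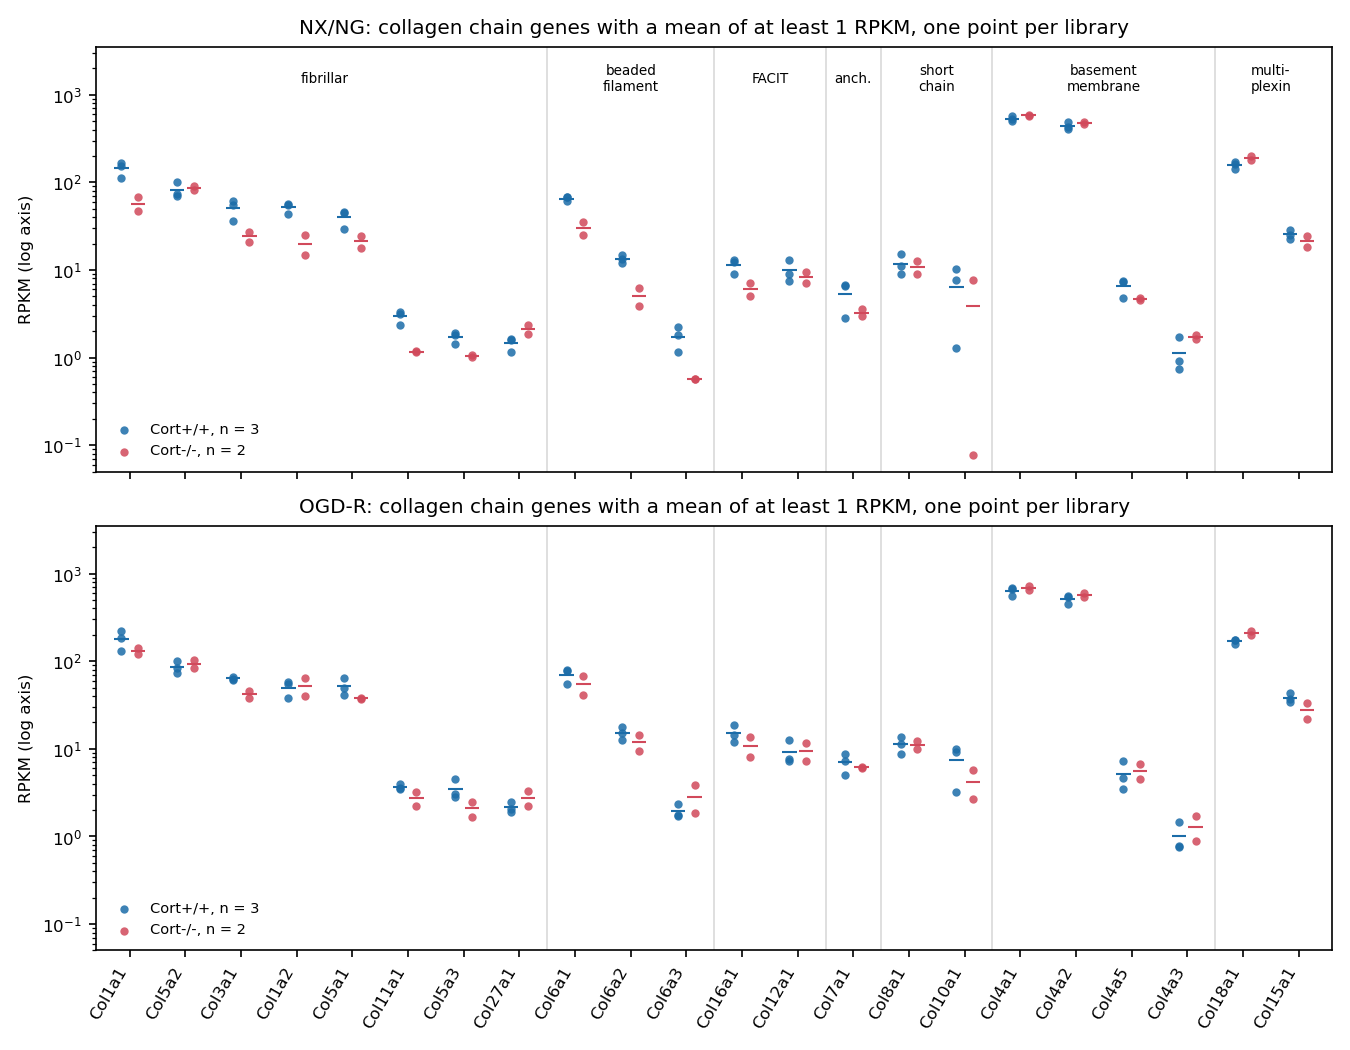
RPKM on a log axis of the 22 collagen genes that averaged 1 RPKM or more, under NX/NG (top) and OGD-R (bottom), by collagen type. Each point is a library and each bar the group mean. Under NX/NG the Cort-/- points lie below the Cort+/+ points for Col1a1, Col1a2, Col3a1, Col5a1, Col11a1 and the type VI genes, and beside or above them for Col4a1, Col4a2, Col5a2 and Col18a1.

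The first comparison asked how BECs without cortistatin differed before any injury. Under NX/NG, Col1a1, Col1a2, Col3a1, Col5a1, Col5a3, Col6a1, Col6a2, Col6a3, Col11a1 and Col16a1 were at lower levels in Cort-/- than in Cort+/+ BECs, by 1.58-fold for Col5a3 to 2.71-fold for Col6a2, and the genotypes did not overlap for these 10 genes. Col4a1, Col18a1 and Col27a1 were at higher levels without overlap, and Col5a2 and Col4a2 overlapped. In the limma test on log2(RPKM + 0.1), 0 of 41 collagen genes and 0 of 29965 genes (0%) passed a false discovery rate (FDR) of 0.05, the lowest FDR of a collagen gene being 0.192. At an unadjusted p under 0.05, 11 of 41 collagen genes were lower and 0 higher, where 4.82% of all genes tested were lower and 3.56% higher. Among genes that averaged 1 RPKM or more, 10 of 22 collagen genes were lower and 0 higher, beside 7.83% and 5.56% of all such genes. The 11 became between 9 and 13 when 1 Cort+/+ library was left out, with no share of all genes counted in those fits. Without Cort-/- replicate 1, which leaves 1 library in that group, the median log2 difference was -0.04 for collagen genes and -0.04 for all genes. Without Cort-/- replicate 2 it was -0.31 for collagen genes and -0.02 for all genes. With limma-voom on the reads recovered from the RPKM values, 5 of 41 collagen genes were lower at the same FDR, namely Col1a1, Col1a2, Col6a1, Col6a2 and Col11a1, against 0.35% of all genes, and 0 were higher, against 0.0634%. At an unadjusted p under 0.05, limma-voom had 12 collagen genes lower and 6 higher, beside 5.81% and 5.16% of all genes. The groups did not overlap for 14 lower and 4 higher collagen genes, against 12.3% and 10.8% of all genes. The median log2 difference of the 41 collagen genes was -0.22, beside -0.01 for all genes tested. The libraries of a group are independent cultures according to the labels.

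Type I collagen is the main fibril former of connective tissue and is a trimer of Col1a1 and Col1a2 products. Col1a1 was 155, 166 and 113 RPKM in the Cort+/+ libraries and 67.5 and 46.5 RPKM in the Cort-/- libraries under NX/NG. Col1a2 was 55.5, 56.5 and 42.9 RPKM in Cort+/+ and 24.7 and 14.96 RPKM in Cort-/- BECs. Every Cort-/- value lay below every Cort+/+ value for both genes. The log2 difference was -1.35 (SE 0.24, limma FDR = 0.252, limma-voom FDR = 0.0152) for Col1a1 and -1.41 (SE 0.25, limma FDR = 0.252, limma-voom FDR = 0.0123) for Col1a2.

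Of the other fibril genes above 1 RPKM, Col3a1, Col5a1, Col5a3 and Col11a1 had the same direction, and Col5a2 and Col27a1 did not. Col3a1, whose type III fibrils accompany type I in vessel walls, was 60.7, 54.9 and 35.9 RPKM in Cort+/+ and 27.4 and 20.8 RPKM in Cort-/- BECs. Col5a1, a chain of the type V collagen that starts and limits fibrils, was 45.1, 45.5 and 29.4 RPKM in Cort+/+ and 24.5 and 17.9 RPKM in Cort-/- BECs. For both genes the lowest Cort+/+ library, replicate 3, still lay above both Cort-/- libraries. Col11a1, a fibril-starting chain related to Col5a1, was 3.14, 3.33 and 2.37 RPKM in Cort+/+ and 1.19 and 1.15 RPKM in Cort-/- BECs, from 349 to 558 reads against 188 and 186. Col5a3, a further type V chain, was 1.89, 1.82 and 1.44 RPKM in Cort+/+ and 1.08 and 1.01 RPKM in Cort-/- BECs. Neither gene overlapped between genotypes. The log2 differences were -1.04 (SE 0.26) for Col3a1, -0.90 (SE 0.25) for Col5a1, -1.25 (SE 0.18) for Col11a1 and -0.66 (SE 0.18) for Col5a3, with limma FDR = 0.403, 0.439, 0.192 and 0.441. Col5a2, the other main type V chain, was at 70.1, 99.7 and 73.1 RPKM in Cort+/+ and 90.1 and 81.1 RPKM in Cort-/- BECs. Its groups overlapped, and its log2 difference was 0.10 (SE 0.17, limma FDR = 0.857). Col27a1, a fibrillar collagen of cartilage, was 1.64, 1.17 and 1.60 RPKM in Cort+/+ and 1.85 and 2.38 RPKM in Cort-/- BECs. Both Cort-/- libraries lay above all Cort+/+ libraries, with a log2 difference of 0.50 (SE 0.21, limma FDR = 0.644).

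Type VI collagen forms beaded filaments at the border of basement membranes and is assembled from Col6a1, Col6a2 and Col6a3 products. Col6a1 was 68.0, 67.2 and 60.4 RPKM in Cort+/+ and 35.6 and 25.1 RPKM in Cort-/- BECs, and Col6a2 was 11.98, 13.4 and 14.98 RPKM against 6.19 and 3.84 RPKM. Col6a3 was 1.15, 2.22 and 1.81 RPKM in Cort+/+ and 0.575 and 0.566 RPKM in Cort-/- BECs, from 168 to 349 reads against 85 and 86. No Cort-/- library reached any Cort+/+ library for these genes. The log2 difference was -1.12 (SE 0.16, limma FDR = 0.192, limma-voom FDR = 0.00518) for Col6a1, -1.44 (SE 0.22, limma FDR = 0.225, limma-voom FDR = 0.00951) for Col6a2 and -1.40 (SE 0.31, limma FDR = 0.351, limma-voom FDR = 0.0696) for Col6a3. The remaining type VI genes listed in this table, Col6a5 and Col6a6, had at most 3 reads in every NX/NG library.

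Among the collagens that sit on fibril surfaces or anchor the epithelial basement membrane, Col16a1, a fibril-associated collagen, was 13.03, 12.4 and 8.95 RPKM in Cort+/+ and 7.15 and 5.01 RPKM in Cort-/- BECs. The genotypes did not overlap, and the log2 difference was -0.91 (SE 0.23, limma FDR = 0.403). Col7a1, the anchoring fibril collagen, was 6.53, 6.69 and 2.85 RPKM in Cort+/+ and 3.59 and 2.94 RPKM in Cort-/- BECs. Its groups overlapped because Cort+/+ replicate 3 was the lowest library, and the log2 difference was -0.61 (SE 0.41, limma FDR = 0.689). Col23a1, a transmembrane collagen, was named after its values were seen as the eleventh gene with an unadjusted p under 0.05. It was 0.839, 1.01 and 0.846 RPKM in Cort+/+ and 0.522 and 0.466 RPKM in Cort-/- BECs, with a log2 difference of -0.74 (SE 0.22, limma FDR = 0.480).

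The basement membrane collagens were not of one direction. Col4a1 and Col4a2 encode the chains of the ubiquitous type IV network and were the most abundant collagens in every library. Col4a1 was 504, 525 and 565 RPKM in Cort+/+ and 580 and 578 RPKM in Cort-/- BECs, and Col4a2 was 409, 431 and 484 RPKM against 488 and 468 RPKM. The Cort-/- values lay just above the Cort+/+ range for Col4a1 and overlapped it for Col4a2, with log2 differences of 0.13 (SE 0.10, limma FDR = 0.742) and 0.12 (SE 0.11, limma FDR = 0.784). Col4a5, a type IV chain of more restricted membranes, was 7.22, 7.43 and 4.79 RPKM in Cort+/+ and 4.72 and 4.49 RPKM in Cort-/- BECs, lower without overlap, with a log2 difference of -0.46 (SE 0.21, limma FDR = 0.656). Col18a1, the heparan sulphate collagen whose end fragment is endostatin, was 140, 161 and 169 RPKM in Cort+/+ and 179 and 199 RPKM in Cort-/- BECs. Its genotypes did not overlap, the log2 difference being 0.27 (SE 0.11, limma FDR = 0.596). Col15a1, the related multiplexin of vessel basement membranes, was 24.9, 22.7 and 28.6 RPKM in Cort+/+ and 24.2 and 18.4 RPKM in Cort-/- BECs. Its groups overlapped, with a log2 difference of -0.26 (SE 0.15, limma FDR = 0.681). Col8a1, a short-chain collagen of subendothelial matrix, was 11.1, 15.4 and 9.08 RPKM in Cort+/+ and 9.10 and 12.8 RPKM in Cort-/- BECs and overlapped as well, with a log2 difference of -0.10 (SE 0.26, limma FDR = 0.915).

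**Figure D2:**
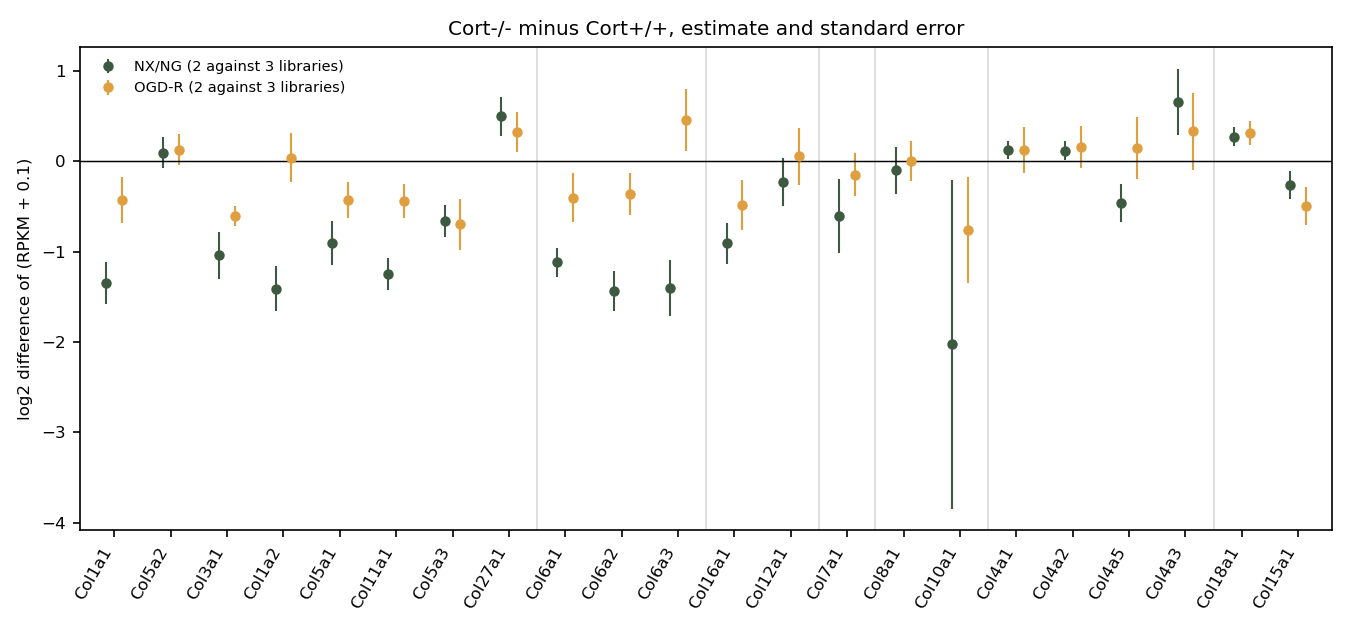
Log2 difference of (RPKM + 0.1) between Cort-/- and Cort+/+ BECs for the same 22 genes, with standard error, under NX/NG (dark) and OGD-R (light), 2 against 3 libraries in each. Values under NX/NG lie between -1.44 and -0.66 for Col1a1, Col1a2, Col3a1, Col5a1, Col5a3, Col11a1, Col16a1 and the type VI genes, and near 0 for Col4a1, Col4a2 and Col5a2.

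The ratios between chains, which do not depend on library scaling, showed how unevenly the genes differed. Col4a1 to Col4a2 stayed between 1.17 and 1.24 in all 10 libraries. Col1a1 to Col1a2 under NX/NG averaged 2.79 ± 0.159 (SD, n = 3) in Cort+/+ and 2.92 ± 0.268 (SD, n = 2) in Cort-/- BECs, so the type I genes were lower by about the same factor. Col5a2 to Col5a1, by contrast, was 1.55, 2.19 and 2.49 in Cort+/+ and 3.68 and 4.53 in Cort-/- BECs under NX/NG, without overlap. Col4a1 to Col1a1 was 3.25, 3.16 and 5.02 in Cort+/+ and 8.59 and 12.4 in Cort-/- BECs. Under OGD-R the latter ratio was 3.07, 2.95 and 5.13 in Cort+/+ and 6.06 and 4.59 in Cort-/- BECs, and the genotypes overlapped. Col5a2 to Col5a1 still did not overlap there, at 1.55, 1.71 and 1.78 against 2.30 and 2.67. Col18a1 to Col15a1 was 4.71, 4.57 and 4.02 in Cort+/+ and 6.53 and 9.17 in Cort-/- BECs under OGD-R. These ratios were chosen after the values of the genes had been seen and carry no test.

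**Figure D3:**
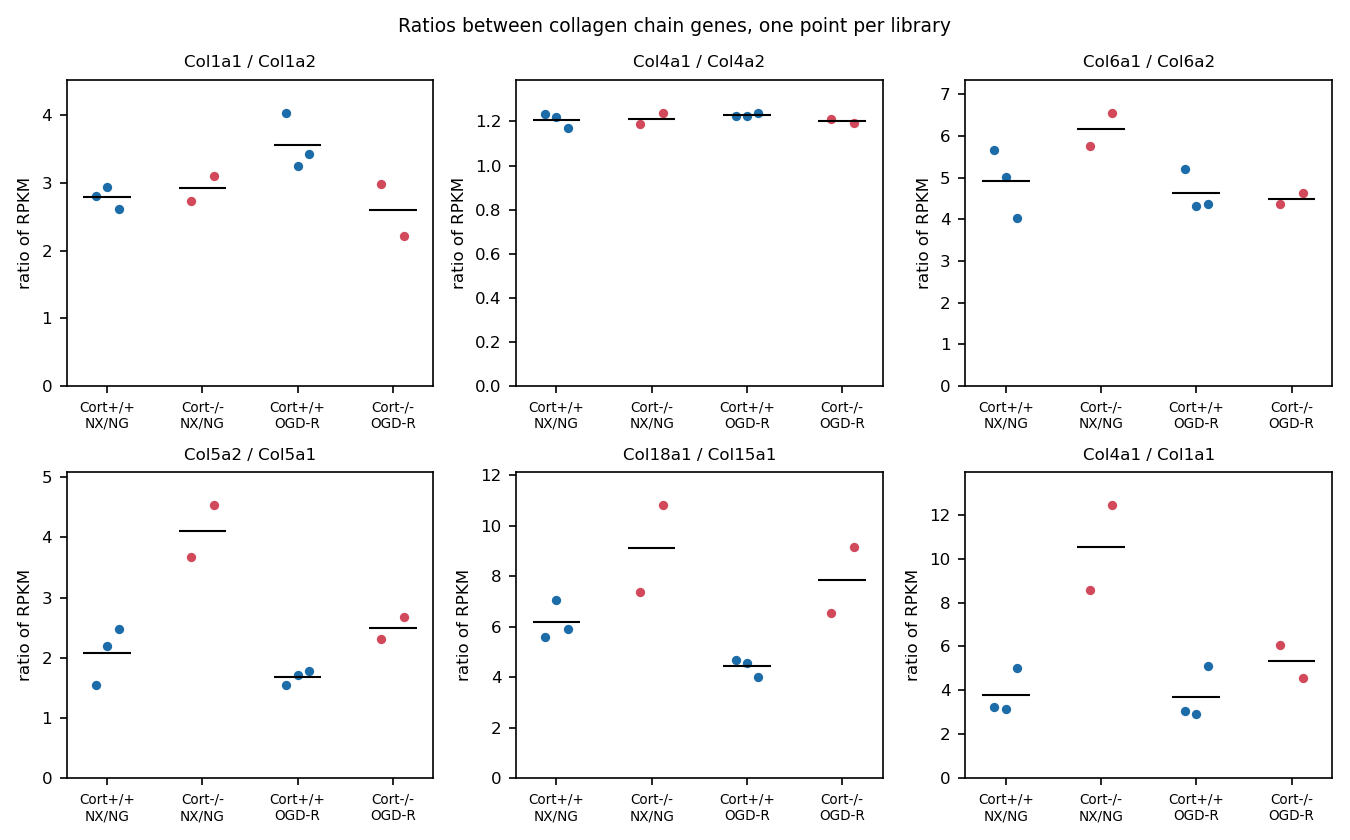
Ratios of RPKM between collagen genes, one point per library, with bars at the group mean (n = 3 for Cort+/+, n = 2 for Cort-/- in each environment). Col4a1 to Col4a2 lies between 1.17 and 1.24 throughout, whereas Col4a1 to Col1a1 reaches 8.59 and 12.4 in the Cort-/- NX/NG libraries and lies between 2.95 and 6.06 in all other libraries.

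Gene neighbours did not always share a direction. By order in the RefSeq annotation of GRCm38.p6, 7 pairs of collagen genes have no protein-coding gene between them, among them Col3a1 with Col5a2, Col6a1 with Col6a2, and Col4a1 with Col4a2. The last 2 pairs had like differences within each pair under NX/NG, whereas Col3a1 was at -1.04 and its neighbour Col5a2 at 0.10 on the log2 scale. RefSeq promoter windows were at hand for 34 of the 43 genes. The following are the 250 bases before the annotated start of Col1a2, Col11a1 and Col6a1 (GRCm38.p6), shown because these genes were at lower levels together, with the motifs GGGCGG (known as a GC box) and CCAAT in capitals wherever either strand held them, written 5′ to 3′ on the gene's strand. Col1a2 lies at chr6:4505368-4505617 (plus strand), Col11a1 at chr3:114030290-114030539 (plus strand) and Col6a1 at chr10:76726045-76726294 (minus strand).
Col1a2: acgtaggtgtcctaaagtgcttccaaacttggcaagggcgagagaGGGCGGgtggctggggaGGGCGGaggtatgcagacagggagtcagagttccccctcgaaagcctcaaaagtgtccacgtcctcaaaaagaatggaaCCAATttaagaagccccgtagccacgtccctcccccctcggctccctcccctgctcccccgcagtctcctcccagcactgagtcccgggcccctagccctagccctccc
Col11a1: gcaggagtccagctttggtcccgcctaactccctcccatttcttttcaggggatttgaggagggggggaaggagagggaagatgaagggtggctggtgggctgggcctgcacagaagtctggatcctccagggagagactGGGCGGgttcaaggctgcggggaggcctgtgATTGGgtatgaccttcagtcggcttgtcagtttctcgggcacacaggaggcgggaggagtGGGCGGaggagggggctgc
Col6a1: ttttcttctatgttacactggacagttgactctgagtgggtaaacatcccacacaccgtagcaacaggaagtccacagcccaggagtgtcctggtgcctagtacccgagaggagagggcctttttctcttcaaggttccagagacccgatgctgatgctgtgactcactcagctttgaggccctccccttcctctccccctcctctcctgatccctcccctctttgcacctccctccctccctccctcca
The Col1a2 and Col11a1 windows each held 3 matches and the Col6a1 window held 0. All 3 genes were among the 5 called lower by limma-voom. Of the other called genes, Col6a2 held GGGCGG but not CCAAT in its window, and Col1a1 had no window. Col4a1 (minus strand, start at 11312826) and Col4a2 (plus strand, start at 11312805) have annotated starts 21 bases apart, so the genes overlap there. Their ratio was the steadiest of those computed, and a link with position was not tested. A stretch of 30 bases before the Col4a2 start is given for comparison, with its CCAAT in capitals (chr8:11312761-11312790, plus strand). It lies downstream of the annotated Col4a1 start on that gene's strand.
Col4a2: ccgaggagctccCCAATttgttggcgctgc
Over both strands GGGCGG occurred in 61.1% of the 36 collagen windows, beside 32.7% of all 32851 promoter windows of the same length, and CCAAT in 33.3% beside 33.8%. These are matches of letters only and were not tested for binding.

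Genes that process collagen mostly had lower estimates in Cort-/- BECs under NX/NG, 24 of 32, where 15616 of all 29965 genes tested did. The other 8 had higher estimates, and of these Colgalt1, Plod1 and Tll2 did not overlap between genotypes. Of 32 biosynthesis and processing genes, 11 were lower and 0 higher at an unadjusted p under 0.05 (4.82% of all genes were lower), 0 passed the limma FDR, and 4 were lower at the limma-voom FDR, beside 0.35% of all genes. The lowest p-values belonged to Loxl1 and Loxl3, which encode lysyl oxidase-like cross-linking enzymes, and to Adamts2, a procollagen N-proteinase. Loxl1 was 14.2, 12.99 and 12.5 RPKM in Cort+/+ and 7.74 and 6.71 RPKM in Cort-/- BECs, with a log2 difference of -0.86 (SE 0.09, limma FDR = 0.109, limma-voom FDR = 0.0123). The log2 difference was -0.56 (SE 0.06, limma FDR = 0.112) for Loxl3 and -0.96 (SE 0.15, limma FDR = 0.225) for Adamts2, and neither overlapped between genotypes. Of 9 collagen receptor genes tested, 4 were lower and 0 higher at an unadjusted p under 0.05, 0 passed the limma FDR and 2 were lower at the limma-voom FDR, beside the same 4.82% and 0.35% of all genes. The lowest p-values were those of Itga10, an integrin subunit, at -1.02 (SE 0.11, limma FDR = 0.117), Mrc2, a collagen uptake receptor, at -1.06 (SE 0.20, limma FDR = 0.272), and Ddr2, a receptor for fibrillar collagen, at -0.76 (SE 0.19, limma FDR = 0.408). Serpinh1, the collagen chaperone HSP47, was named after its values were seen, at 262, 263 and 244 RPKM in Cort+/+ and 249 and 241 RPKM in Cort-/- BECs, with overlapping groups.

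Some markers of pericytes were lower where the fibrillar genes were, and those of smooth muscle overlapped. Under NX/NG the 6 pericyte markers summed to between 17.9 and 21.4 RPKM in Cort+/+ and to 7.59 and 10.2 RPKM in Cort-/- BECs. Cspg4, the NG2 proteoglycan, was 3.55, 4.08 and 4.13 RPKM in Cort+/+ and 0.679 and 1.36 RPKM in Cort-/- BECs (log2 difference -1.91, SE 0.29, limma-voom FDR = 0.00643), and Pdgfrb, the receptor that recruits pericytes, was 12.1, 13.5 and 12.6 RPKM against 5.17 and 7.66 RPKM (2.001-fold lower, limma-voom FDR = 0.0172). The groups did not overlap for either gene. Of the 6 pericyte markers, 3 were lower at an unadjusted p under 0.05 and 0 higher, beside 4.82% and 3.56% of all genes tested. Kcnj8 and Abcc9 did not exceed 0.0353 RPKM in any library. Smooth muscle markers summed to between 1449 and 1777 RPKM in Cort+/+ and to 1300 and 1556 RPKM in Cort-/- BECs, of which Acta2 gave 844 to 1080 and 797 and 907 RPKM, the groups overlapped, and 0 of 5 had an unadjusted p under 0.05. Endothelial markers had higher estimates in Cort-/- BECs for 7 of 7 genes, where 14349 of all 29965 genes tested did. The median log2 difference of these markers was 0.34. They summed to 1128 and 1268 RPKM in Cort-/- and to 882, 860 and 1133 RPKM in Cort+/+ BECs. Erg, an endothelial transcription factor, was the 1 of 7 higher at an unadjusted p under 0.05, beside 3.56% of all genes tested. It was at 64.5, 66.2 and 91.6 RPKM in Cort+/+ and 100.3 and 109 RPKM in Cort-/- BECs (log2 difference 0.51, SE 0.17, limma FDR = 0.531). Of the 8 fibroblast and leptomeningeal markers, 7 were listed under NX/NG, 3 with lower and 4 with higher estimates in Cort-/- BECs. They summed to between 3.73 and 6.15 RPKM in Cort+/+ and to 3.46 and 3.79 RPKM in Cort-/- BECs. Fbln1 was lower without overlap, and Pdgfra and Pi16 were higher without overlap. Pdgfra was 0.366, 0.319 and 0.320 RPKM in Cort+/+ and 0.485 and 0.706 RPKM in Cort-/- BECs. Lum and Dpt were at no more than 0.149 RPKM in any library. The part of these cells in the collagen differences was not tested. In RNA from whole cultures, fewer cells of a type and less RNA per cell cannot be told apart.

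**Figure D4:**
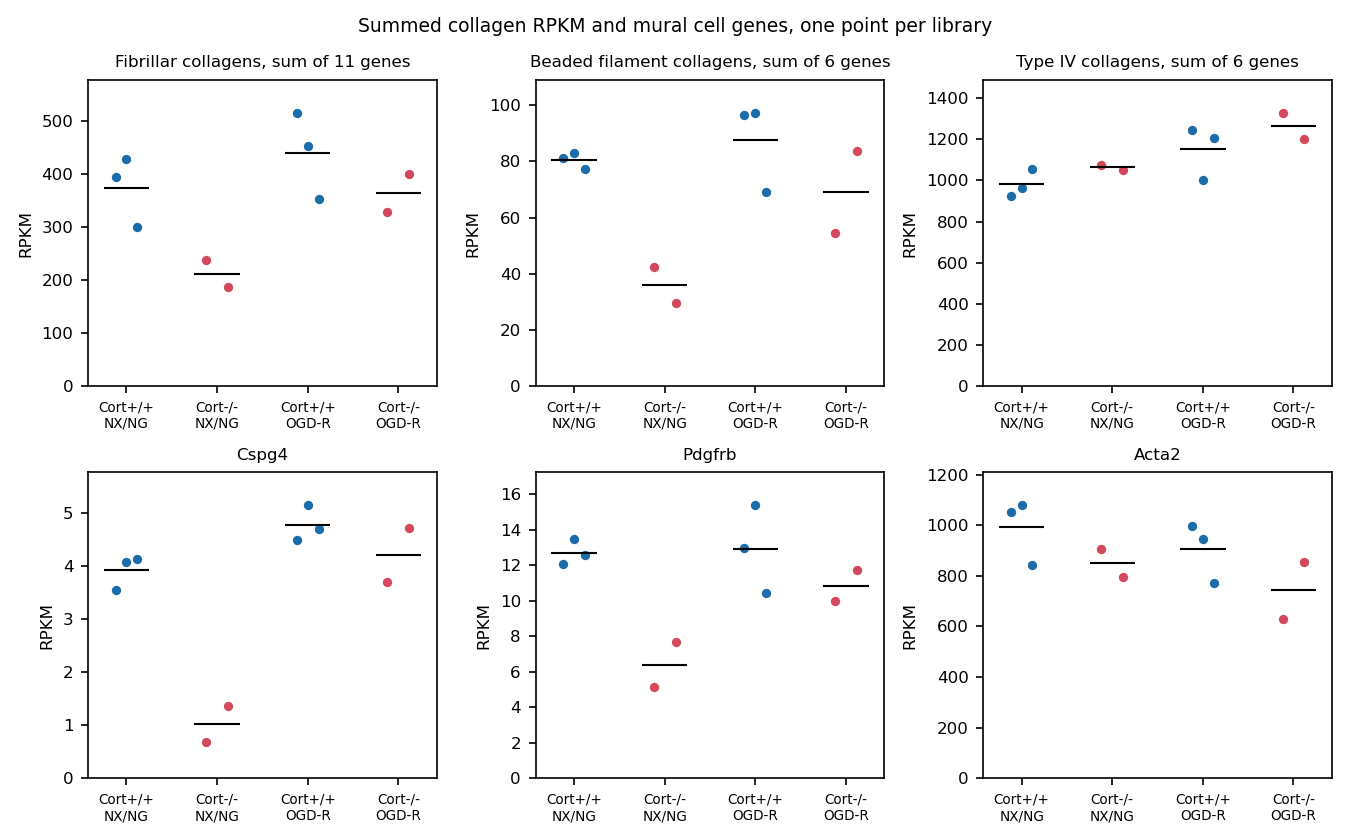
Summed RPKM of the fibrillar, beaded filament and type IV collagen genes (top) and RPKM of Cspg4, Pdgfrb and Acta2 (bottom), one point per library, with bars at the group mean (n = 3 for Cort+/+, n = 2 for Cort-/-). The tables of the 2 environments were scaled apart, so points compare within an environment. Under NX/NG the Cort-/- libraries are the lowest for the fibrillar sum (186 and 239 against 300 to 429 RPKM), the beaded filament sum, Cspg4 and Pdgfrb, but not for the type IV sum.

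The second comparison asked for the same difference after OGD-R. Here the genotypes were closer for most fibrillar and type VI genes. Col3a1 had the lowest limma p of the collagen genes but did not pass the FDR. It was the only 1 of 43 with an unadjusted limma p under 0.05, which is near the share of all genes. None of 43 collagen genes and 0 of 29775 genes (0%) passed the limma FDR, and limma-voom called 0 collagen genes, with 0.0101% of all genes lower and 0.00672% higher. At an unadjusted p under 0.05, 1 of 43 was lower and 0 higher in limma, beside 1.71% and 1.72% of all genes and 2.23% and 1.49% of genes averaging 1 RPKM or more, and 7 were lower and 2 higher in limma-voom, beside 2.2% and 1.85% of all genes in that fit. Groups did not overlap for 6 lower and 2 higher collagen genes, beside 6.71% and 7.54%. The median log2 difference was -0.10 for the collagen genes and -0.01 for all genes. Without both libraries low in ribosomal RNA, 3 collagen genes were lower and 0 higher at an unadjusted p under 0.05, and leaving out single libraries gave from 1 (without Cort+/+ replicate 2) to 5 lower (without Cort+/+ replicate 3).

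Col3a1 was 63.1, 66.5 and 61.7 RPKM in Cort+/+ and 38.5 and 45.5 RPKM in Cort-/- BECs under OGD-R. The genotypes did not overlap, and the log2 difference was -0.61 (SE 0.11, limma FDR = 0.479). Col1a1 was 222, 186 and 130 RPKM in Cort+/+ and 120 and 141 RPKM in Cort-/- BECs, and Col1a2 was 54.9, 57.3 and 37.9 RPKM against 40.0 and 63.8 RPKM. Both genes overlapped, and the highest Col1a2 value of the environment was a Cort-/- library, replicate 3. The log2 difference was -0.43 (SE 0.25, limma FDR = 0.978) for Col1a1 and 0.04 (SE 0.27, limma FDR = 0.985) for Col1a2, and the latter was -0.22 without both libraries low in ribosomal RNA.

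Among the other fibril genes, Col5a1 was 64.8, 49.2 and 40.8 RPKM in Cort+/+ and 36.7 and 38.5 RPKM in Cort-/- BECs, and Col11a1 was 3.60, 4.02 and 3.45 RPKM against 2.24 and 3.21 RPKM. Col5a3 was 4.56, 3.02 and 2.81 RPKM in Cort+/+ and 2.50 and 1.67 RPKM in Cort-/- BECs. Cort-/- values lay below all Cort+/+ values for these 3 genes, with log2 differences of -0.43 (SE 0.20), -0.44 (SE 0.19) and -0.70 (SE 0.28) in that order, each at limma FDR = 0.978. Col16a1 was 18.6, 14.5 and 12.01 RPKM in Cort+/+ and 8.17 and 13.6 RPKM in Cort-/- BECs, and Col5a2 was 101, 84.2 and 72.8 RPKM against 84.5 and 103 RPKM. Both overlapped, with log2 differences of -0.49 (SE 0.28) and 0.13 (SE 0.18).

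The type VI genes overlapped between genotypes under OGD-R. Col6a1 was 79.4, 77.1 and 55.0 RPKM in Cort+/+ and 41.2 and 67.3 RPKM in Cort-/- BECs, and Col6a2 was 15.3, 17.8 and 12.6 RPKM against 9.44 and 14.5 RPKM. In both, Cort-/- replicate 1 was the lowest library. Col6a3 was 1.74, 2.36 and 1.72 RPKM in Cort+/+ and 3.82 and 1.86 RPKM in Cort-/- BECs, so that replicate 1 was here the highest. The log2 differences were -0.40 (SE 0.27) for Col6a1, -0.36 (SE 0.23) for Col6a2 and 0.46 (SE 0.34) for Col6a3, each at limma FDR = 0.978. Cort-/- OGD-R replicate 1 and Cort+/+ NX/NG replicate 2, the libraries highest in Krt8, were also those highest in Col6a3 within their environments. The library next highest in Krt8, Cort-/- NX/NG replicate 2 (2.57 RPKM), was the lowest in Col6a3 in its environment (0.566 RPKM). The part of epithelial cells in Col6a3 levels was not tested.

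Among basement membrane genes under OGD-R, Col18a1 was higher and Col15a1 lower in Cort-/- BECs without overlap, and Col4a1 and Col4a2 overlapped. Col4a1 was 681, 548 and 666 RPKM in Cort+/+ and 724 and 648 RPKM in Cort-/- BECs, and Col4a2 was 556, 448 and 538 RPKM against 598 and 544 RPKM. Both overlapped, with log2 differences of 0.12 (SE 0.26) and 0.16 (SE 0.23). Col18a1 was 173, 158 and 175 RPKM in Cort+/+ and 219 and 200 RPKM in Cort-/- BECs, once more without overlap, with a log2 difference of 0.31 (SE 0.13, limma FDR = 0.978). Col15a1 was 36.7, 34.6 and 43.6 RPKM in Cort+/+ and 33.6 and 21.8 RPKM in Cort-/- BECs, all Cort-/- values being lower, with a log2 difference of -0.49 (SE 0.21, limma FDR = 0.978). Col8a1 was 13.8, 11.2 and 8.64 RPKM in Cort+/+ and 9.83 and 12.4 RPKM in Cort-/- BECs, with a log2 difference of 0.00 (SE 0.22), and Col7a1 was 8.68, 7.29 and 4.99 RPKM against 6.07 and 6.18 RPKM, with one of -0.15 (SE 0.24). Both overlapped.

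Of the 32 processing genes, 4 were lower and 0 higher at an unadjusted p under 0.05 under OGD-R, beside 1.71% and 1.72% of all genes, and 0 passed the limma FDR. The lowest p-values were those of Lox, the lysyl oxidase, at -0.57 (SE 0.16), Plod2, a lysyl hydroxylase, at -0.36 (SE 0.10), and Loxl1 at -0.50 (SE 0.16), each at limma FDR = 0.978. Of 10 receptor genes 1 was lower and 0 higher beside the same shares, the lowest p-values being those of Ddr2 at -0.38 (SE 0.14), Itga11 at -0.48 (SE 0.19) and Ddr1 at -0.44 (SE 0.30), each at limma FDR = 0.978. Cspg4 was 4.49, 5.15 and 4.71 RPKM in Cort+/+ and 3.69 and 4.72 RPKM in Cort-/- BECs, and Pdgfrb was 12.99, 15.4 and 10.4 RPKM against 9.98 and 11.8 RPKM. Both genes overlapped between genotypes. Of the 6 pericyte markers 1 was lower and 0 higher at an unadjusted p under 0.05, beside 1.71% and 1.72% of all genes. The 1 was Vtn, at 0.574, 0.399 and 0.247 RPKM in Cort+/+ and 0.0840 and 0.108 RPKM in Cort-/- BECs (log2 difference -1.32, SE 0.42). Of the 8 fibroblast and leptomeningeal markers 7 had lower estimates, where 15297 of all 29775 genes tested did. Lum and Fbln1 were lower at an unadjusted p under 0.05 (-0.85, SE 0.30, and -0.46, SE 0.16), beside 1.71% of all genes. The 8 markers summed to 7.65, 5.98 and 5.64 RPKM in Cort+/+ and to 4.94 and 4.13 RPKM in Cort-/- BECs without overlap, as for Col3a1. The part of such cells in the Col3a1 difference was not tested. Endothelial markers had 0 of 7 genes with an unadjusted p under 0.05.

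A further pair of comparisons asked what OGD-R did in each genotype, on reads of both tables scaled together. They share their libraries with the comparisons above, so that a low level in Cort-/- NX/NG libraries enters both, and the values are given side by side only. In Cort+/+ BECs 0 of 41 collagen genes passed the limma FDR, where 9 of 27075 genes (0.0332%) did. At an unadjusted p under 0.05, 3 collagen genes were higher after OGD-R and 0 lower, beside 3.01% and 2.48% of all genes and 4.27% and 2.56% of genes averaging 1 RPKM or more. Groups did not overlap for 3 higher and 0 lower collagen genes, beside 5.12% and 5.05%. limma-voom called 0 collagen genes, with 0.00369% of all genes lower and 0% higher, and at an unadjusted p under 0.05 it had 3 higher and 0 lower, beside 2.4% and 3.16%. Without Cort+/+ OGD-R replicate 1, 2 were higher and 1 lower.

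Col15a1 was 25.6, 23.3 and 29.3 jointly scaled RPKM under NX/NG and 35.7, 33.8 and 42.5 after OGD-R in Cort+/+ BECs. Col5a3 was 1.94, 1.86 and 1.48 jointly scaled RPKM against 4.44, 2.94 and 2.74, and Col27a1 was 1.68, 1.196 and 1.65 against 1.86, 2.01 and 2.43. Each OGD-R library lay above each NX/NG library for these 3 genes. The log2 difference was 0.52 (SE 0.12, limma FDR = 0.762) for Col15a1, 0.88 (SE 0.21, limma FDR = 0.826) for Col5a3 and 0.46 (SE 0.19, limma FDR = 0.881) for Col27a1. The log2 difference was 0.17 (SE 0.15) for Col4a1, 0.15 (SE 0.15) for Col4a2, 0.22 (SE 0.23) for Col1a1, -0.13 (SE 0.19) for Col1a2 and 0.02 (SE 0.15) for Col6a1, and all 5 overlapped.

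In Cort-/- BECs, 9 collagen genes had a higher level after OGD-R at an unadjusted p under 0.05, 8 of them among the 10 named above as lower under NX/NG. Those 10 were named for low values in the libraries that are the baseline here, so this direction is not independent of the first comparison. None of 41 collagen genes and 0 of 26523 genes (0%) passed the limma FDR with 2 libraries against 2, and limma-voom called 0 collagen genes. At an unadjusted p under 0.05, 9 collagen genes were higher and 0 lower in limma, beside 2.21% and 1.87% of all genes and 1.94% and 1.76% of genes averaging 1 RPKM or more, and 11 were higher and 0 lower in limma-voom, beside 1.9% and 2.08% of all genes in that fit. Groups did not overlap for 15 higher and 3 lower collagen genes, beside 14.4% and 15.9%. The median log2 difference of the 41 genes was 0.18, beside 0.00 for all genes. Without Cort-/- OGD-R replicate 3, which is low in ribosomal RNA, 3 were higher and 1 lower at an unadjusted p under 0.05, with 1 library against 2, 4 were higher and 1 lower without Cort-/- OGD-R replicate 1, and 4 were higher and 0 lower without either NX/NG library.

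Col1a1 was 69.4 and 47.9 jointly scaled RPKM under NX/NG and 117 and 138 after OGD-R in Cort-/- BECs, and Col1a2 was 25.4 and 15.4 against 39.0 and 62.2. Both OGD-R libraries lay above both NX/NG libraries, with log2 differences of 1.13 (SE 0.22, limma FDR = 0.764) and 1.31 (SE 0.35, limma FDR = 0.922). Col6a2 was 6.36 and 3.95 jointly scaled RPKM against 9.20 and 14.2, and Col6a3 was 0.592 and 0.582 against 3.72 and 1.81. Neither overlapped, with log2 differences of 1.17 (SE 0.33, limma FDR = 0.922) and 1.98 (SE 0.41, limma FDR = 0.784), the latter being 1.47 without Cort-/- OGD-R replicate 1. The other 5 of the 9 genes were Col3a1 at 0.73 (SE 0.18), Col5a1 at 0.76 (SE 0.18), Col5a3 at 0.84 (SE 0.27), Col11a1 at 1.06 (SE 0.24) and Col7a1 at 0.82 (SE 0.14). The difference was 0.16 (SE 0.24) for Col4a1, 0.18 (SE 0.22) for Col4a2, 0.05 (SE 0.14) for Col5a2 and 0.07 (SE 0.15) for Col18a1. Among pericyte markers Cspg4 was at 1.93 (SE 0.37, limma FDR = 0.754) and Pdgfrb at 0.70 (SE 0.23, limma FDR = 0.922). Endothelial markers had lower estimates for 7 of 7 genes, where 13613 of all 26523 genes tested did. Of the 7, 1 was lower at an unadjusted p under 0.05 (Tek at -0.35, SE 0.13), beside 1.87% of all genes.

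**Figure D5:**
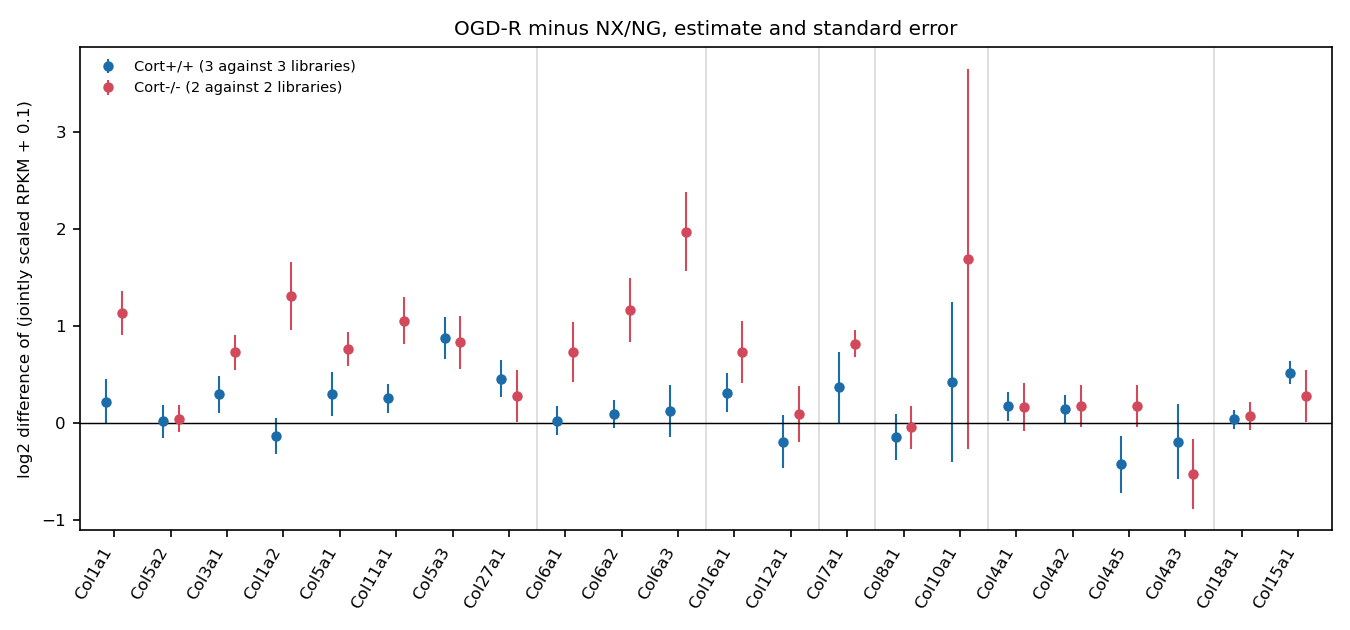
Log2 difference of (jointly scaled RPKM + 0.1) between OGD-R and NX/NG for the 22 genes, with standard error, in Cort+/+ (3 against 3 libraries) and Cort-/- BECs (2 against 2). Cort-/- values lie above 0.7 for Col1a1, Col1a2, Col3a1, Col5a1, Col5a3, Col11a1, Col16a1, Col7a1 and the type VI genes, where Cort+/+ values lie between -0.13 and 0.37 except for Col5a3 at 0.88.

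The last comparison tested whether the genotypes differed in their response, as the interaction of genotype and environment. None of 41 collagen genes passed the limma FDR, where 3 of 27321 genes (0.011%) did, and limma-voom called 0 collagen genes, with 6 higher and 0 lower at an unadjusted p under 0.05 beside 1.73% and 0.985% of all genes. At an unadjusted p under 0.05, 5 collagen genes had a higher interaction and 0 a lower one, beside 1.69% and 1.17% of all genes and 0.921% and 0.776% of genes averaging 1 RPKM or more. They were Col1a1 at 0.91 (SE 0.37), Col1a2 at 1.44 (SE 0.40), Col6a2 at 1.07 (SE 0.35), Col6a3 at 1.85 (SE 0.49) and Col11a1 at 0.80 (SE 0.27) on the log2 scale, each at limma FDR = 1. Cspg4 was at 1.72 (SE 0.34) and Pdgfrb at 0.76 (SE 0.27). The value was -0.01 (SE 0.24) for Col4a1 and 0.03 (SE 0.22) for Col4a2. Without both libraries low in ribosomal RNA, or without Cort-/- OGD-R replicate 3 alone, 2 collagen genes had an unadjusted p under 0.05.

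Some processing genes were higher after OGD-R at an unadjusted p under 0.05, and 0 were lower. In Cort+/+ BECs 3 of 32 were higher and 0 lower at an unadjusted p under 0.05, beside 3.01% and 2.48% of all genes, namely Plod1, a lysyl hydroxylase, at 0.35 (SE 0.09), Loxl3 at 0.31 (SE 0.09) and Loxl1 at 0.30 (SE 0.11). In Cort-/- BECs 5 of 32 were higher and 0 lower, beside 2.21% and 1.87%, with the lowest p-values for Loxl1 at 0.66 (SE 0.16), Plod1 at 0.42 (SE 0.11) and Loxl3 at 0.59 (SE 0.17). None passed the limma FDR. The lowest p-values of receptor genes were those of Itga11, Ddr2 and Itga2 in Cort+/+ BECs, at 0.39 (SE 0.15), -0.27 (SE 0.12) and 0.15 (SE 0.12), and those of Mrc2, Itga11 and Itga10 in Cort-/- BECs, at 0.67 (SE 0.34), 0.67 (SE 0.36) and 0.56 (SE 0.30). For the interaction, 0 of 32 processing genes had an unadjusted p under 0.05, beside 1.69% of all genes higher and 1.17% lower. They were led by Adamts2 at 0.53 (SE 0.23), Loxl1 at 0.36 (SE 0.19) and Adamts14 at 0.43 (SE 0.24). Of 9 receptor genes 1 had an unadjusted p under 0.05 beside the same shares, Itga10 at 0.72 (SE 0.29). It was followed by Mrc2 at 0.75 (SE 0.39) and Ddr2 at 0.37 (SE 0.26).

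The remaining collagen genes were low. Col12a1, a fibril-associated collagen, lay between 7.09 and 13.2 RPKM, Col4a5 between 3.52 and 7.43 RPKM and Col4a3 between 0.745 and 1.80 RPKM over the 10 libraries, and their genotypes overlapped except for Col4a5 under NX/NG, lower in Cort-/- BECs as given above. Col10a1, the hypertrophic cartilage collagen, was singled out after its values were seen because its libraries disagreed most. Under NX/NG its reads numbered 3 and 308 in Cort-/- and 49, 312 and 374 in Cort+/+ BECs, so that its log2 difference of -2.02 had an SE of 1.82. Genes below 1 RPKM on average did not exceed 1.01 RPKM in any library. Of these, Col6a5, Col6a6, Col9a2, Col17a1 and Col25a1 had at most 3 reads in every NX/NG library, and Col6a4, Col6a5, Col6a6, Col25a1 and Col26a1 in every OGD-R library, a level at which no difference could be detected at this depth.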

How the data were processed

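RNA of primary BECs was sequenced in 4 groups. The deposited values are RPKM per gene and library, which the authors computed with the reanalyzerGSE pipeline, in a separate table for each environment. The submitters' processing notes name edgeR; the aligner, the counter and the genome build are not given in the sources used here. Labels and methods differ in kit and read length. Columns of the authors' own comparisons (fold changes, p-values, FDR) and expression categories were not used.

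Products of RPKM and gene length were whole multiples of 1 read, within 0.05, for no less than 99.9958% of a library's values, so reads were recovered, between 12386048 and 12390428 per library. Counting error is then small for genes above 1 RPKM, and the number of libraries limits precision. Genes with at most 3 reads in every library were taken as at the floor.

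Genes with any value above 0 were fitted with limma 3.58.1 (R 4.3.3) on log2(RPKM + 0.1), with a variance trend and Benjamini-Hochberg adjustment, FDR 0.05. The pseudocount understates changes of low genes. For environments and the interaction, reads of 27321 shared genes were scaled jointly by trimmed means of M values. limma-voom on the reads stands beside it. On simulated counts the limma fit found fewer of the changed genes than limma-voom and made some false calls where limma-voom made none, and with 2 libraries against 2 neither found any. Genes averaging 10 RPKM or more in a group, or an unadjusted p of at most 0.05 in a comparison with at least 1 RPKM, are given library by library. Of pathway genes, the 3 with the lowest p are given. Members and lists were chosen with earlier results of these data known. Alternatives were a pseudocount of 1, a filter, quantile normalization, totals without ribosomal RNA, one fit of all groups, a replicate block, a term for low ribosomal RNA and leaving out each library.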

Additional observations from a re-analysis of the deposited data

How the results depend on the processing

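The number of collagen genes past the FDR was 0 in all 5 comparisons and in 76 of 79 alternatives. Under NX/NG it was 5 with limma-voom on recovered reads, 5 with limma-voom restricted to genes reaching 1 RPKM in 2 or more libraries (chosen after seeing the data), and from 0 to 1 when 1 replicate was left out, the 1 being Col6a1 without Cort-/- replicate 1, where 1 Cort-/- library is assumed to vary like the Cort+/+ group. In the other comparisons leaving out 1 replicate gave 0. With the replicate number as a block the count was 0 under NX/NG, under OGD-R, for OGD-R in Cort+/+ BECs and for the interaction. limma-voom with the block (added after seeing the data) also gave 0 under NX/NG, where limma-voom without it gave 5. Over all 29965 genes limma-voom with the block called 0, beside 124 without it, so this 0 is not particular to the collagen genes. Deviations of same-numbered libraries from their group means correlated between -0.53 and 0.19. In a group of 2 libraries the deviations mirror each other, so these correlations cannot decide whether the numbers pair cultures. The main fits did not take the numbers as pairs, and whether they are pairs remains unknown. For OGD-R against NX/NG in Cort-/- BECs alone, no paired analysis was possible because these libraries share only 1 replicate number. Of 669 alternative values of named genes, 665 kept their direction. For genes whose groups do not overlap, leaving out a library cannot reverse the direction, and some settings repeat the same fit. This agreement was therefore partly fixed beforehand and is not a test. The 4 reversals were all Col1a2 under OGD-R, whose 0.04 became -0.032 with a term for low ribosomal RNA, -0.30 without Cort-/- replicate 3, -0.15 without Cort+/+ replicate 3 and -0.22 without both libraries low in ribosomal RNA (added after seeing the data), within leave-one-out limits of -0.30 and 0.37; the cause was not tested. Over all genes under NX/NG, 0 passed the FDR in limma and 124 in limma-voom, and with a single Cort-/- library left limma called 543 or 683. With 2 libraries in a group, differences of the size seen here can miss the FDR, so 0 calls do not show equal levels.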
